A study of Mus musculus with 12 samples.

Results

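The TRAF adaptors and NF-kappaB subunits described here were 10 genes, selected by symbol from the 48623 genes of the table: *Traf1*, *Traf2*, *Traf3*, *Traf5* and *Traf6*, and *Nfkb1*, *Nfkb2*, *Rela*, *Relb* and *Nfkbia*. Each symbol belonged to 1 Ensembl identifier, so that choosing the identifier with the highest mean TPM (an abundance per transcript length, set to an equal total per library) decided nothing. All 10 were among the 11204 genes that passed the expression filter, a mean log2(TPM + 1) above 1.5 over the 12 libraries. *Traf1* passed it through the R47H KI libraries, since it was near 0 in untreated WT microglia.

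The libraries came from primary microglia of newborn C57BL/6J mice, either wild type (WT) or with 2 copies of the *Trem2* R47H knock-in (KI), a coding variant of a microglial lipid-sensing receptor. The study describes lower *Trem2* expression in the knock-in line, tied to altered splicing. It treats the line largely as a model of *Trem2* down-regulation and not of the amino acid change alone. There were 3 cultures per genotype (T13, T33 and T43 for WT, T15, T22 and T32 for KI), and each gave 1 untreated library and 1 library after 48 h in 20 ng/ml IL-4, a cytokine that drives alternative activation. All cells had been grown for 19 to 23 days as mixed glia and then separated from the astrocyte layer by mild trypsinization. The study names WT littermates as the comparison for KI, and in KI litters each pup was cultured separately and genotyped afterwards.

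TRAF proteins are adaptors that bind the cytoplasmic tails of tumour necrosis factor receptors, or act below Toll-like and interleukin-1 receptors, and recruit ubiquitin ligases and kinases. In the canonical pathway the kinase IKK marks the inhibitor IkappaB-alpha, encoded by *Nfkbia*, for destruction and frees dimers of RELA with the p50 product of *Nfkb1*. In the non-canonical pathway, TRAF2 and TRAF3 hold the kinase NIK at a low level. Release of that brake lets the *Nfkb2* product p100 be cut to p52, which pairs with RELB. Much of this control acts on proteins, which the libraries do not measure.

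The TPM summed to 1000000 in every library, and between 20750 and 23945 genes were above 0 per library. The number of reads counted per library is unknown from these values. *Trem2* lay between 1190 and 1886 TPM in the WT libraries and between 324.6 and 769.9 TPM in the KI libraries. Of 12 microglial and macrophage markers, all had a lower mean in untreated KI than in untreated WT libraries, and 6 were past the genotype threshold. Their summed level was 17580 to 18340 TPM in untreated WT and 7607 to 14130 TPM in untreated KI microglia, with no marker at 0 throughout a group. The 7 mural or smooth muscle markers summed to 148.6 to 339.3 TPM in untreated WT and 1094 to 1421 TPM in untreated KI libraries, and 3 of them, *Acta2*, *Tagln* and *Cnn1*, were past the threshold. Only 4 of the 7 had a higher mean in untreated KI than in untreated WT. *Cspg4* had a lower one (1.735 against 6.713 TPM), and *Rgs5* and *Myh11* were at most 0.79 TPM in any library. The 8 astrocyte markers summed to 157.4 to 661.4 TPM and 205.3 to 4599 TPM, with KI culture T15 the highest, and all 8 had a higher mean in untreated KI. The 6 oligodendrocyte lineage markers also all had a higher mean there, with *Olig1* past the threshold, and summed to 28.4 to 80.0 TPM in untreated WT and 108.3 to 454 TPM in untreated KI libraries. The 6 fibroblast markers summed to 8.03 to 18.2 TPM and 28.8 to 80.3 TPM. Of the 5 endothelial markers, *Cldn5* was listed at 0 in every library, *Flt1* was at 15.3 to 131.6 TPM and *Pecam1* at 1.12 to 9.19 TPM. The lymphocyte markers *Cd79a* and *Cd8a* were listed at 0 in every library.

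**Figure D1:**
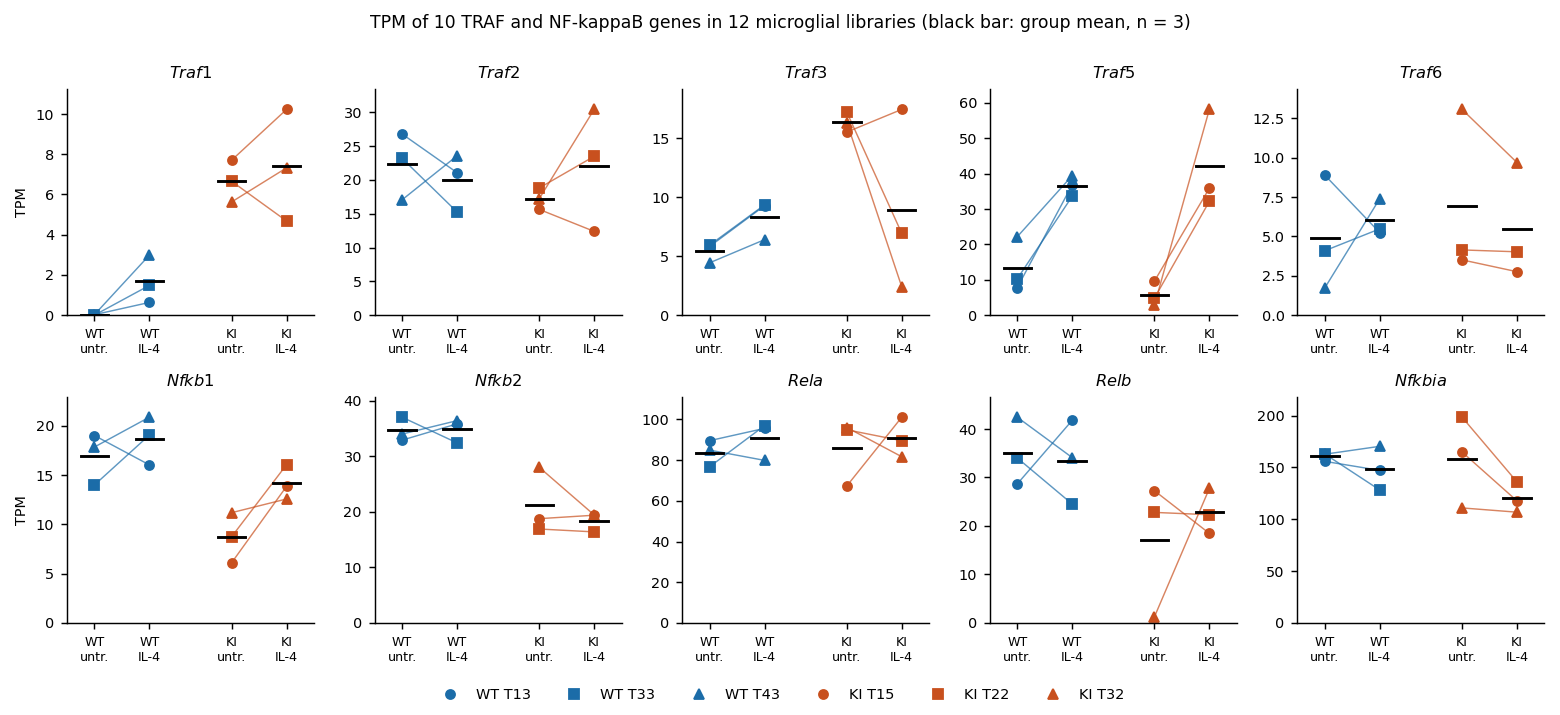
TPM (y axis, linear from 0) of each of the 10 genes in every library, with a line joining the untreated and the IL-4 library of a culture and a black bar at each group mean (n = 3). *Traf5* rises with IL-4 in every culture, *Traf1* is near 0 in untreated WT, and *Nfkb2* is lower in the 6 KI than in the 6 WT libraries.

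The inhibitor and the canonical subunit were the most abundant members. *Nfkbia* averaged 146.8 TPM over the 12 libraries (106.8 to 198.4) and *Rela* 87.9 TPM (67.3 to 101.1), whereas *Nfkb2* averaged 27.3, *Relb* 27.1 and *Traf5* 24.5 TPM. *Traf2* (20.4 TPM) and *Nfkb1* (14.6 TPM) came next, and *Traf3* (9.76 TPM), *Traf6* (5.84 TPM) and *Traf1* (3.95 TPM) were the lowest. The library ranges of *Nfkb2*, *Relb*, *Traf5*, *Traf2* and *Nfkb1* overlapped, so that their order is not resolved, nor is that of *Traf3*, *Traf6* and *Traf1*. The latter, at up to 17.5, 13.1 and 10.2 TPM, also reached into the range of *Nfkb1* (6.11 to 20.9 TPM). The averages pool the groups, and in untreated KI the mean of *Traf3* (16.4 TPM) was above those of *Nfkb1* (8.7 TPM) and *Traf5* (5.77 TPM). *Rela* was the steadiest member, with a standard deviation over all libraries of 11.4% of its mean. The same quantity was 71.3% for *Traf5* and 90.4% for *Traf1*.

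The 250 bases before the RefSeq transcription starts were read for the members with an entry, 8 of 10 genes in 10 windows on GRCm38.p6. *Nfkb1* and *Relb* had none. Both strands were searched for the consensus of NF-kappaB and for the STAT letters TTCNNNGAA and TTCNNNNGAA, the second being the spacing preferred by the IL-4-activated factor STAT6. Windows are shown for *Traf1* and *Traf5*, the members with the widest genotype and IL-4 differences, and for comparison the inhibitor gene and an *Nfkb2* start, all outside the gene's annotated exons, each as 5′ to 3′ on the gene's strand with a match to the NF-kappaB consensus in capitals.
Traf1, chr2:34961773-34962022, minus strand: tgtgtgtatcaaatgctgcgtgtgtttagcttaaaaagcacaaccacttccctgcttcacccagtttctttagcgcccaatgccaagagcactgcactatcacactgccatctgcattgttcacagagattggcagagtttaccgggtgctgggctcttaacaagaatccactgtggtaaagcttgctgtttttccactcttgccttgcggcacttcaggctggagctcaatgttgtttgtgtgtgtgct
Traf5, chr1:192092600-192092849, minus strand: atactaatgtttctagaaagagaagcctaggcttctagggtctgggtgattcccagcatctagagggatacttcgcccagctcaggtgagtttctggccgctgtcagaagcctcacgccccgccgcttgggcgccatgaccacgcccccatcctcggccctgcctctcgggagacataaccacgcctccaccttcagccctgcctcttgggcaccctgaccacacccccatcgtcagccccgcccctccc
Nfkb2, chr19:46305445-46305694, plus strand: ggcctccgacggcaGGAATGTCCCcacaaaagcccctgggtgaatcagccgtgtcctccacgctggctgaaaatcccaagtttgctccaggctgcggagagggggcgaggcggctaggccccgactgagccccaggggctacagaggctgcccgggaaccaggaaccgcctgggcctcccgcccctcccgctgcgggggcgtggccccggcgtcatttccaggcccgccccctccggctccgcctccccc
Nfkbia, chr12:55492648-55492897, minus strand: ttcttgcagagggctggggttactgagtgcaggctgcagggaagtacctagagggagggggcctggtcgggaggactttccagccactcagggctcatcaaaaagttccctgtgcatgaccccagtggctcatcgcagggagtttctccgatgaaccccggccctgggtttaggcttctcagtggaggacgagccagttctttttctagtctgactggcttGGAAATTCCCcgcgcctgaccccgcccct
The NF-kappaB letters were in all 3 windows of *Nfkb2*, in that of *Nfkbia* (GGAAATTCCC, starting 29 bases before the start) and in that of *Traf3* (GGGGATTTCC, starting 10 bases before it). The *Nfkb2* windows not shown lie within its annotated exons for 250 and 234 of their 250 bases, and the latter overlaps the window shown. No match to the NF-kappaB letters was in the windows of *Traf1*, *Traf2*, *Traf5*, *Traf6* and *Rela*. Among all 32851 windows of this length, 7.25% held a match. TTCNNNGAA was in 1 *Nfkb2* window and in 7.02% of all windows, and TTCNNNNGAA was in no member window and in 5.85% of all windows.

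The first comparison asked which members differ between R47H KI and WT microglia. In limma's F-test, which takes the genotype and interaction coefficients together, genotype called 185 of 11204 genes at an adjusted p under 0.05, 1.65% of those tested (1.29% higher and 0.357% lower in KI). Of the 10 members, 1 was among them and none was lower. It was *Traf1*, which was tested only because its KI libraries are high, so that this call supports nothing about the members. With no expression filter no member was called. The median log2 difference was -0.16 over the members and 0.13 over all genes tested. In untreated libraries alone, 0.91% of genes were called and *Traf1*, with the same limit, was among them. After IL-4 2 genes were called, 0.0179% of those tested, and no member was. KI and WT libraries did not overlap for 18.2% of all genes without IL-4 and for 18.5% with it. Of the members, 5 did not overlap without IL-4 (*Traf1* and *Traf3* higher, *Nfkb1*, *Nfkb2* and *Relb* lower in KI) and 2 did not with it (*Traf1* and *Nfkb2*). These are bulk samples, in which fewer cells of a type and less RNA per cell cannot be told apart.

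*Traf1* encodes an adaptor without the RING domain of most of its relatives, which joins TRAF2 in receptor complexes. The gene (ENSMUSG00000026875, chr2:34941750-34961772, minus strand, GRCm38) was listed at 0.0235, 0 and 0.0234 TPM without IL-4 in WT (T13, T33 and T43, the order used throughout), and at 0.632, 1.48 and 2.98 TPM after IL-4. In KI (T15, T22 and T32, in this order) it was at 7.71, 6.66 and 5.63 TPM untreated and at 10.2, 4.68 and 7.32 TPM after IL-4. Every KI library was therefore above every WT library, and within WT the IL-4 libraries were above the untreated ones. As a description, the mean log2 difference over both treatments, KI minus WT, was 2.29 (SE, the standard error, 0.36), with 2.91 in untreated cells (SE 0.51) and 1.68 after IL-4 (SE 0.51). The size rests on the pseudocount, since with 0.1 in place of 1 the mean difference was 4.05. The IL-4 difference was 1.31 in WT (SE 0.51, contrast adjusted p = 0.628) and 0.09 in KI (SE 0.51, contrast adjusted p = 0.99), and the test of the difference between these did not pass (-1.23, SE 0.72, adjusted p = 1.0).

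The F-test's adjusted p for the genotype difference of *Traf1* was 0.0148 with the expression filter, which selects for that difference, and 0.0649 without it. With the filter it was 0.0811 without KI culture T15, 0.118 without WT culture T33 and 0.0766 without WT culture T43, and the log2 difference was between 2.13 and 2.46 when any culture was left out. The mural marker sums were higher in the same KI libraries, at 724.3 to 1284 TPM against 234.1 to 431.8 TPM after IL-4. So were the oligodendrocyte lineage markers, at 89.6 to 310.1 TPM against 27.4 to 81.9 TPM after IL-4, whereas the astrocyte sums (536.6 to 3509 against 174.7 to 590.6 TPM) and the fibroblast sums (15.1 to 66.5 against 15.3 to 232.1 TPM) overlapped there. The part of these markers in the *Traf1* difference was not tested.

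*Traf3* encodes the adaptor that brings NIK to the ubiquitin ligases that destroy it (ENSMUSG00000021277, chr12:111166370-111267153, plus strand). In untreated WT it was at 5.83, 5.94 and 4.44 TPM, and in untreated KI at 15.5, 17.2 and 16.3 TPM, so the groups stood apart. After IL-4 it was at 9.29, 9.35 and 6.40 TPM in WT (T13, T33, T43) and at 17.5, 6.94 and 2.40 TPM in KI (T15, T22, T32), and the groups overlapped. With IL-4 it was higher in 3 of 3 WT cultures and in 1 of 3 KI cultures, and culture T32 had the widest difference (-2.35 on the log2 scale). The genotype difference was 1.45 without IL-4 (SE 0.51, contrast adjusted p = 0.182) and -0.22 with it (SE 0.51, contrast adjusted p = 0.937). The difference between the IL-4 responses was -1.67 (SE 0.72), with an unadjusted p of 0.0365 and an adjusted p of 1.0 in limma's test of the interaction, and it was -1.06 without KI culture T32. No gene of 11204 passed that test (0%), and 357 genes had an unadjusted p under 0.05 (3.19%). Without the filter 4 genes passed, and no member did.

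*Nfkb2* (ENSMUSG00000025225, chr19:46304320-46312385, plus strand), whose p100 product is both precursor and inhibitor in the non-canonical pathway, was at 32.9, 37.0 and 34.0 TPM in untreated WT and at 35.8, 32.4 and 36.4 TPM in IL-4-treated WT cultures. In KI it was at 18.8, 16.9 and 28.0 TPM untreated and at 19.4, 16.4 and 19.4 TPM after IL-4. All 6 KI libraries lay below all 6 WT libraries, and the untreated library of T32 was the closest to WT. Over both treatments the mean log2 difference was -0.80 (SE 0.17), which missed the threshold (F-test adjusted p = 0.0637). It passed with quantile-normalized values (-1.01, adjusted p = 0.0338), with median-ratio scaling (-0.92, adjusted p = 0.0365) and in the test of the averaged difference alone (adjusted p = 0.0195). It did not pass with culture as a block (F-test adjusted p = 0.111), no variance trend (0.0955) or no expression filter (0.109). Nor did it pass when any culture was left out (0.058 to 0.361). The scalings also moved the median of all genes, from 0.13 to -0.08 and 0.02.

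*Nfkb1*, the source of p105 and p50, was at 19.0, 14.0 and 17.9 TPM in untreated WT and at 6.11, 8.75 and 11.2 TPM in KI microglia without IL-4. These libraries did not overlap, and the log2 difference was -0.92 (SE 0.31, contrast adjusted p = 0.17). After IL-4 it was at 16.0, 19.1 and 20.9 TPM in WT and 13.9, 16.1 and 12.6 TPM in KI, and the groups overlapped at 16.0 TPM (WT T13) and 16.1 TPM (KI T22). *Nfkb1* was higher with IL-4 in all 3 KI cultures, by 0.68 on average (SE 0.31, contrast adjusted p = 0.673).

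*Relb*, the partner of p52, was at 28.7, 34.0 and 42.4 TPM in untreated WT and at 27.3, 22.8 and 1.27 TPM in KI microglia without IL-4. The untreated library of KI culture T32 stood far below the other 11, which lay between 18.5 and 42.4 TPM. After IL-4 *Relb* was at 41.8, 24.5 and 34.1 TPM in WT and at 18.5, 22.3 and 27.7 TPM in KI, and the groups overlapped. Averaged over both treatments, *Relb* differed by -1.07 (SE 0.49, F-test adjusted p = 0.38), and by -0.56 without culture T32 (adjusted p = 0.291).

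The microglial marker sums were also lower in untreated KI than in untreated WT libraries, while the mural, oligodendrocyte lineage and fibroblast sums were higher and all 8 astrocyte markers had a higher mean. After IL-4 the microglial sums were 12960 to 16510 TPM in KI and 19450 to 23870 TPM in WT. The part of any of these marker sets in the differences of *Traf3*, *Nfkb2*, *Nfkb1* and *Relb* was not tested. *Rela* did not separate the genotypes. Without IL-4 it was at 89.6, 76.8 and 84.9 TPM in WT and at 67.3, 94.9 and 96.0 TPM in KI, and the groups overlapped. Its log2 difference of 0.01 (SE 0.13, F-test adjusted p = 0.996) turned to -0.13 with quantile-normalized values and to -0.11 with median-ratio scaling.

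**Figure D2:**
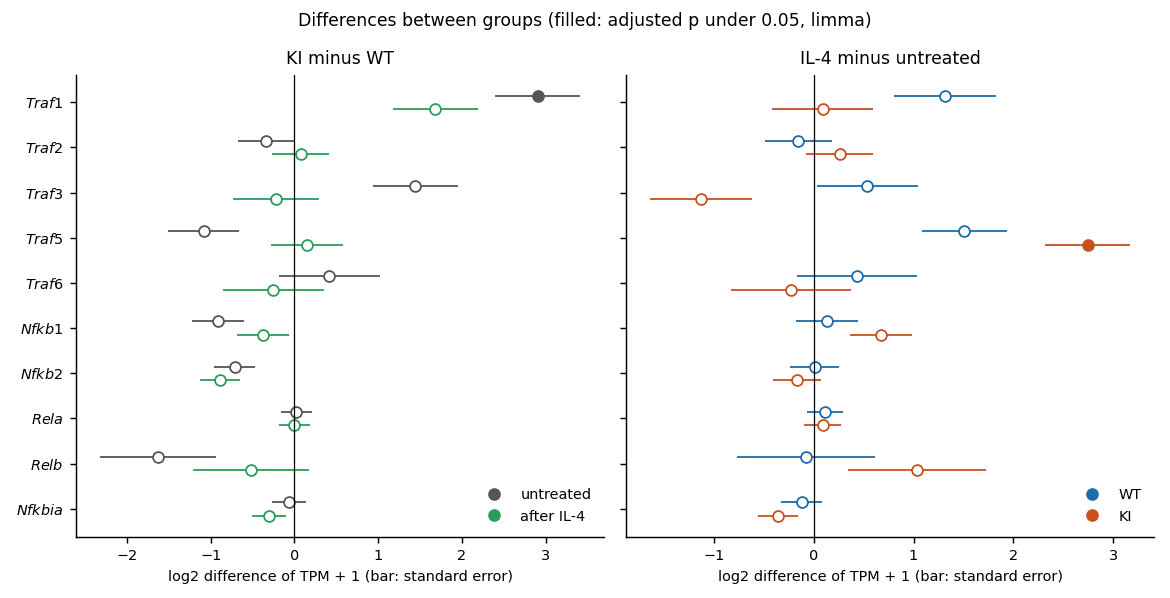
Log2 differences of TPM + 1 (x axis, bars are standard errors) for each of the 10 genes, KI minus WT on the left and IL-4 minus untreated on the right, with filled circles for an adjusted p under 0.05 in limma. The filled circles are *Traf1* in untreated cells (2.91), which was tested only because its KI libraries are high, and *Traf5* in KI (2.75).

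The second comparison asked which members respond to IL-4. The F-test of IL-4 and the interaction together called 100 genes, 0.893% of those tested (0.75% higher and 0.143% lower with IL-4). Of the 10 members, *Traf5* was called, higher with IL-4. The median log2 difference was 0.10 over the members and 0.04 over all genes tested. By genotype, the IL-4 contrast called 0.571% of genes in WT, with no member among them, and 0.402% in KI, with *Traf5* among them. A shift in the same direction in all 6 cultures was seen for 8.24% of all genes and for 1 member, again *Traf5*.

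*Traf5* encodes a TRAF2-related adaptor of tumour necrosis factor receptors, best known from lymphocytes (ENSMUSG00000026637, chr1:191997205-192092559, minus strand). Without IL-4 *Traf5* was in WT at 7.75, 10.3 and 22.2 TPM, and after IL-4 at 36.8, 33.6 and 39.4 TPM. In KI it was without IL-4 at 9.64, 4.82 and 2.87 TPM, and after IL-4 at 35.9, 32.2 and 58.2 TPM. The untreated libraries, with 2.87 to 22.2 TPM, all lay below the IL-4 libraries, with 32.2 to 58.2 TPM. The log2 difference averaged over both genotypes was 2.13 (SE 0.30, F-test adjusted p = 0.00444), and it was between 0.80 in WT culture T43 and 3.94 in KI culture T32. The IL-4 difference was 1.51 in WT (SE 0.43, contrast adjusted p = 0.247) and 2.75 in KI (SE 0.43, contrast adjusted p = 0.00861). The difference between these responses did not pass (1.24, SE 0.60, adjusted p = 1.0, limma), and it was 0.64 without KI culture T32.

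After IL-4 the KI and WT levels of *Traf5* overlapped (0.15, SE 0.43, adjusted p = 0.952, limma), and without IL-4 KI differed from WT by -1.09 (SE 0.43, contrast adjusted p = 0.221). The IL-4 call held in all 6 fits that left out a culture (adjusted p between 0.0033 and 0.0461) and was lost with no expression filter (adjusted p = 0.0811). The lymphocyte markers summed to at most 1.84 TPM in any library. The endothelial markers summed to 19.4 to 29.1 TPM in the untreated and 61.0 to 141.6 TPM in the IL-4 libraries. Most of the sum was *Flt1*, which averaged 21.76 TPM in untreated and 89.79 TPM in IL-4-treated WT, and 17.74 and 73.63 TPM in KI. *Pecam1* averaged 3.023 and 8.582 TPM in WT, and 3.478 and 5.841 TPM in KI. *Cldn5* was listed at 0 in every library, *Cdh5* was at most 0.3336 TPM and *Kdr* at most 1.233 TPM. The part of these markers in the *Traf5* difference was not tested. The antisense gene *Gm26879*, which overlaps *Traf5* and cannot be separated from it by strand in these libraries, was at most 2.37 TPM.

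The other receptor adaptors passed neither test. *Traf2*, which carries the cIAP ubiquitin ligases into receptor complexes, lay between 12.4 and 30.4 TPM in the 12 libraries, and both extremes came from IL-4-treated KI cultures (T15 and T32). Its log2 difference was -0.13 for genotype (SE 0.24, F-test adjusted p = 0.85) and 0.05 for IL-4 (SE 0.24, F-test adjusted p = 1.0). *Traf6*, the ubiquitin ligase of Toll-like and interleukin-1 receptor signalling, lay between 1.73 and 13.1 TPM, and its untreated values spanned 1.73 to 8.89 TPM in WT and 3.51 to 13.1 TPM in KI. Its log2 difference was 0.08 for genotype (SE 0.43, F-test adjusted p = 0.909), which turned to -0.27 after quantile normalization, and 0.10 for IL-4 (SE 0.43, F-test adjusted p = 1.0).

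*Nfkbia* is a target of NF-kappaB as well as its inhibitor and is often read as a sign of recent activity of the pathway. In WT it was at 155.8, 162.9 and 162.7 TPM untreated and 147.1, 128.2 and 170.3 TPM after IL-4. In KI it was at 164.8, 198.4 and 110.9 TPM untreated and 117.7, 136.0 and 106.8 TPM after IL-4. It was lower with IL-4 in 5 of 6 cultures, with WT culture T43 the exception, and the untreated and treated groups overlapped in both genotypes. Its log2 difference was -0.24 for IL-4 (SE 0.14, F-test adjusted p = 0.928) and -0.18 for genotype (SE 0.14, F-test adjusted p = 0.696), with -0.02 without KI culture T32 and -0.32 without KI culture T22.

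The make-up of the adaptor pool was described as the share of each gene in the summed TPM of the 5 TRAF members, which holds the differences given above in another form and was not tested. In untreated WT *Traf2* held the largest mean share (48.4% ± 9.43, SD, n = 3), followed by *Traf5* (29.4% ± 17.3). In untreated KI *Traf2* (32.6% ± 3.38) and *Traf3* (30.9% ± 2.08) were close, *Traf1* held 12.6% ± 2.31, and *Traf5* 11.0% ± 6.82. After IL-4 *Traf5* held 50.4% ± 1.04 in WT and 48.2% ± 4.91 in KI and was the most abundant of the 5 in all 6 libraries. The summed TPM of the 5 genes was 43.5 to 55.1 in the untreated and 65.1 to 108 in the IL-4 libraries, so that these ranges did not overlap.

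For *Nfkb1*, *Nfkb2*, *Rela* and *Relb*, the sum was 162 to 189 TPM in the 6 WT and 119 to 153 TPM in the 6 KI libraries. *Rela* held 49.2% ± 3.02 of it in untreated WT and 64.3% ± 7.19 in untreated KI, and 51.1% ± 4.73 and 62.0% ± 4.20 after IL-4 (SD, n = 3 each). Its own TPM did not separate the genotypes.

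**Figure D3:**
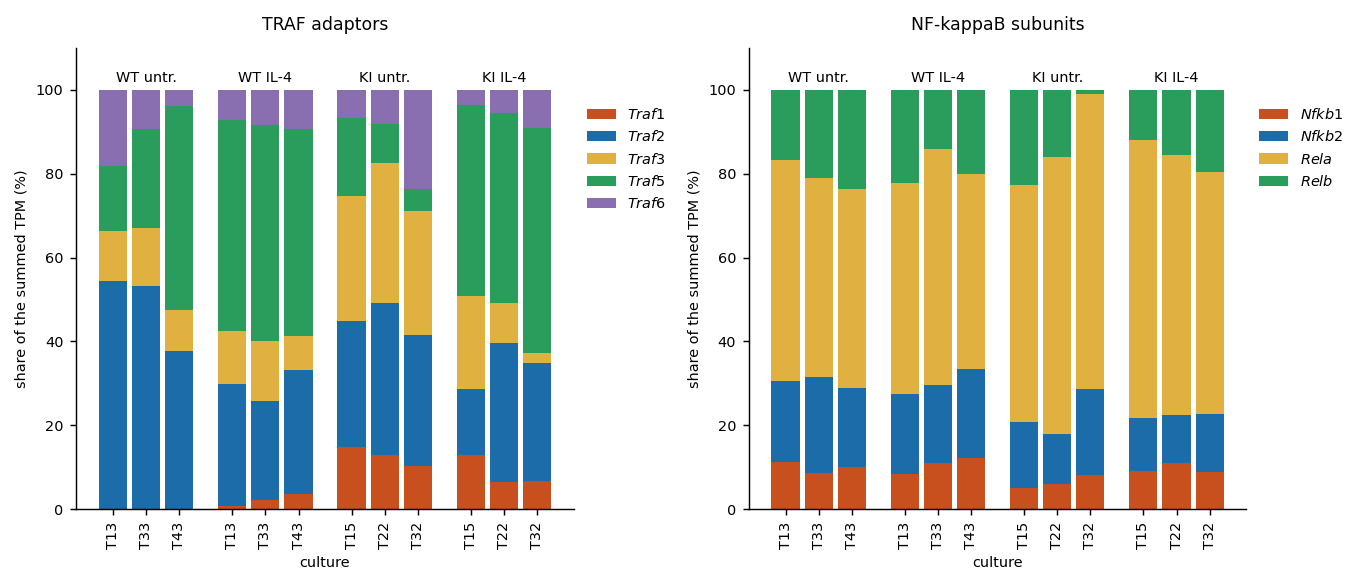
Share of each gene (y axis, percent) in the summed TPM of the 5 TRAF adaptors (left) and of the 4 NF-kappaB subunits (right), 1 stacked bar per library with cultures on the x axis. *Traf5* takes 45.1% to 53.8% of the adaptor sum in the 6 IL-4 libraries, and *Traf1* 6.57% to 14.8% in the 6 KI libraries.

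Across the 12 libraries, the members did not vary as a block. Of the 45 pairs of members, the highest Pearson correlation of log2(TPM + 1) was 0.63, for *Nfkb1* and *Nfkb2*, and the lowest -0.81, for *Traf1* and *Nfkb2*. The tested genes most like *Traf1* were *Anxa6* (r = 0.96), *Mrpl15* (0.96) and *Fam114a1* (0.93). Those most like *Traf5* were *Matk* (0.92), *Cytip* (0.91) and *Chfr* (0.90), and those most like *Nfkb2* were *Arap3* (0.94), *Ufsp2* (0.92) and *Clec12a* (0.89). These values are descriptions over 12 libraries, which share cultures in pairs and fall into 4 groups. *Matk*, a kinase of blood cells, averaged 6.31 TPM in untreated and 26.6 TPM in IL-4-treated WT, and 0.823 and 21.6 TPM in KI.

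Of the 8 other genes of these families (*Traf4*, *Traf7*, *Rel*, *Nfkbib*, *Nfkbid*, *Nfkbie*, *Nfkbiz* and *Bcl3*), all were tested and none was called for genotype, IL-4 or the interaction. Their median log2 difference was -0.08 for genotype and 0.28 for IL-4. *Rel*, which encodes the lymphoid and myeloid subunit c-Rel and was picked out after its values were seen, was higher with IL-4 in 6 of 6 cultures. It was at 6.12, 1.40 and 3.20 TPM in untreated and 9.31, 4.49 and 7.40 TPM in IL-4-treated WT cultures, and at 0.202, 3.15 and 3.24 TPM and 6.93, 11.5 and 7.18 TPM in KI. The groups overlapped in WT and not in KI, and the averaged difference of 1.33 (SE 0.42) missed the threshold (F-test adjusted p = 0.439).

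Among 17 receptors and receptor adaptors that signal through TRAF proteins, 14 were tested, 1 was called higher in KI and 1 lower with IL-4, beside 1.65% and 0.893% of all genes called in these tests, with medians of -0.10 and -0.04. *Tnfrsf12a*, the receptor for the cytokine TWEAK, was at 108.4, 37.8 and 36.3 TPM in untreated WT and at 264.9, 165.5 and 164.2 TPM in KI microglia without IL-4. After IL-4 it was at 66.7, 44.9 and 63.0 TPM in WT and 176.8, 186.7 and 81.4 TPM in KI. The genotypes did not overlap in either treatment, and the averaged log2 difference was 1.55 (SE 0.28, F-test adjusted p = 0.0351). The mural and oligodendrocyte lineage marker sums were higher in the same KI libraries, and all 8 astrocyte markers had a higher mean in untreated KI. Of the untreated libraries of each genotype, T13 and T15 had the most *Tnfrsf12a* and also the most of the astrocyte marker *Gfap* (389.1 and 3013 TPM). After IL-4 T13 again had the most of both in WT (*Gfap* 368.1 TPM). In KI after IL-4, T22 had the most *Tnfrsf12a* and the least *Gfap* (270.9 TPM). The part of these markers in the *Tnfrsf12a* difference was not tested. *Tlr2*, a receptor for bacterial lipoproteins that signals through TRAF6, was at 92.3 to 290.2 TPM in the untreated and 25.3 to 66.6 TPM in the IL-4 libraries. These ranges did not overlap, and *Tlr2* fell by 1.82 in log2 units (SE 0.24, F-test adjusted p = 0.00302), with -1.81 in WT and -1.83 in KI.

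No gene was called among 15 tested of 16 kinases and ubiquitin ligases upstream of NF-kappaB, which include the IKK subunits and the NIK gene *Map3k14*, or among 11 negative regulators such as *Tnfaip3*. Their medians were -0.07 and -0.03 for genotype and -0.02 and -0.04 for IL-4.

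Of 19 well-known NF-kappaB target genes, 17 were tested, and 4 were called for genotype in both directions (1.65% of all genes) and none for IL-4 (0.893% of all genes), with medians of -0.07 and -0.02. The chemokine gene *Ccl2* was at 17.7, 20.1 and 26.9 TPM in untreated WT and at 63.6, 56.8 and 64.9 TPM in KI microglia without IL-4, and its averaged log2 difference was 1.26 (SE 0.24, F-test adjusted p = 0.0369). *Vcam1*, an adhesion molecule that smooth muscle, endothelial and glial cells also make, was at 13.3, 7.41 and 9.82 TPM and at 67.4, 31.1 and 44.4 TPM, with a difference of 1.77 (SE 0.30, F-test adjusted p = 0.0295). Both were higher in every untreated KI than in every untreated WT library.

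In the other direction, the chemokine gene *Ccl4* was at 296.4, 644.5 and 760.1 TPM in untreated WT and at 168.0, 268.6 and 169.6 TPM in KI microglia without IL-4, and differed by -1.19 (SE 0.24, F-test adjusted p = 0.0438). *Bcl2a1d*, a survival gene of the BCL2 family whose close copies can share reads with it, was at 101.8, 114.9 and 103.1 TPM and at 46.6, 65.7 and 49.2 TPM, and differed by -0.92 (SE 0.16, F-test adjusted p = 0.032). In both genes the untreated KI libraries lay below the untreated WT libraries. The called target genes were thus higher for 2 and lower for 2, while in the same untreated KI libraries the marker sums of microglia were lower and those of mural, fibroblast and oligodendrocyte lineage cells higher than in WT. The astrocyte sums overlapped, although all 8 astrocyte markers had a higher mean in untreated KI. The part of any marker set in these 4 differences was not tested.

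**Figure D4:**
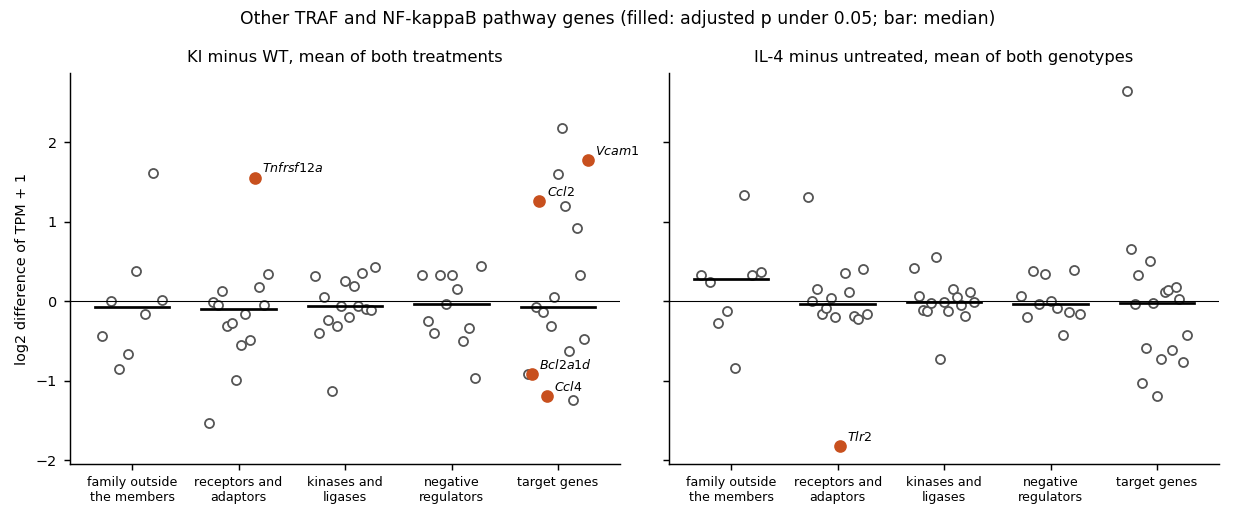
Log2 differences of TPM + 1 (y axis) of every tested gene in 5 lists of the pathway, KI minus WT on the left and IL-4 minus untreated on the right, with filled points for an adjusted p under 0.05 and a bar at each list's median. The medians lie between -0.10 and -0.03 on the left and between -0.04 and 0.28 on the right, with *Tnfrsf12a*, *Vcam1*, *Ccl2*, *Ccl4* and *Bcl2a1d* filled for genotype and *Tlr2* for IL-4.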

How the data were processed

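Primary microglia of WT and *Trem2* R47H KI mice were sequenced from poly(A)-primed cDNA, untreated and after IL-4, in 12 libraries. Reads were trimmed by the authors (Trim Galore) and assigned to ENSEMBL GRCm38 transcripts with Salmon, with correction for GC content and fragment position. The authors deposited TPM per gene, made with tximport. Versions are not given in the sources used here. TPM keeps no read counts, so counting error is unknown and precision is the spread between cultures.

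Of 48623 identifiers, 48350 were named from the GRCm38 annotation. Values were taken as log2(TPM + 1), which understates the change of low genes, and genes with a mean above 1.5 entered a fit in R 4.3.3 with limma 3.58.1 (lmFit, then eBayes with trend) over all 12 libraries with genotype, IL-4 and their interaction. A moderated F-test took the main and interaction coefficients together, since the read counts that the authors tested with likelihood-ratio tests were not analysed here. All adjusted p-values follow Benjamini and Hochberg, with a threshold of 0.05. They are taken over the 11204 genes past the filter, except that fits with another filter adjust over their own genes, which are more with no filter. A run of the fit on simulated libraries, drawn independently and so without pairing by culture, is not reported here. Python 3.11.15, numpy 2.4.6, pandas 2.3.3 and matplotlib 3.10.9 served for tables and plots.

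The untreated and IL-4 libraries of a culture share its number in the sample names and are taken to come from the same cells. Their deviations from the group means correlated by 0.0792 to 0.378. In alternative fits culture was a random block for genotype, with a within-culture correlation of 0.198, and a fixed term for IL-4 and the interaction. Promoter windows and starts are RefSeq's for GRCm38.p6. The members and gene lists were chosen with earlier results of these data known, and the genotype difference of *Traf1* was among those results and is not independent support for them. Named in the text were all members, the other family genes, marker genes and listed genes past a threshold. So were the 3 genes most correlated with *Traf1*, *Traf5* and *Nfkb2*. The values of *Rel* and the names *Map3k14*, *Tnfaip3* and *Gm26879* lie outside this rule. A check of the treatment labels and a lymphocyte marker are not reported here.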

Additional observations from a re-analysis of the deposited data

How the results depend on the processing

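Among single-member differences, 375 alternative values kept their direction and side of the threshold, 21 changed sign, 3 gained and 5 lost a call. The IL-4 call of *Traf5* held with a pseudocount of 0.1, both scalings, no variance trend, the test of the averaged coefficient alone and the replicate block. *Traf1* was also past the genotype threshold there, but these fits keep the filter that selects for its difference, and it was not past it without KI T15 (adjusted p = 0.0811), WT T33 (0.118) or WT T43 (0.0766), or with no filter (0.0649). A pseudocount of 0.1 moved the sizes for *Traf1*, however: from 2.29 to 4.05 for genotype, 0.70 to 1.91 for IL-4 and -1.23 to -3.64 for the interaction. With no filter, the genotype test called 16 genes, the IL-4 test 61 and the interaction test 4, and 0 members for genotype or IL-4. With a filter at 3 *Traf1* and *Traf6* were not tested and 0 members were called for genotype. Members called for genotype numbered 2 (*Traf1* and *Nfkb2*) with quantile-normalized values, with median-ratio scaling and in the test of the averaged coefficient alone. That test, which has no counterpart for the interaction, called 575 genes for genotype and 151 for IL-4, and no variance trend gave 26 and 50. Fits with culture as a replicate block, random for genotype and fixed for IL-4, respect the pairing. There 77 genes were called for genotype and 240 for IL-4, with *Traf1* (adjusted p = 0.0303) and *Traf5* among them, and no member's call changed.

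Leaving out each culture in turn gave 3 to 191 genes for genotype (49 without KI T15, 99 without KI T32, 3 without WT T33, 16 without WT T43) and 0 to 1 members. It gave 46 to 143 genes for IL-4 (65 without KI T32, 56 without WT T13, 51 without WT T33, 46 without WT T43). No gene was called for the interaction. The sign of differences near 0 turned: for genotype *Traf6* was -0.27 and *Rela* -0.13 with quantile-normalized values, -0.007 and -0.107 with median-ratio scaling, and the interaction of *Rela* was 0.06 with quantile normalization. Leaving out a culture gave ranges on both sides of 0 for genotype in *Traf2* (-0.266 to 0.075), *Traf6* (-0.39 to 0.40) and *Rela* (-0.027 to 0.056). The same held for IL-4 in *Traf2* (-0.10 to 0.20), *Traf3* (-0.618 to 0.009), *Traf6* (-0.19 to 0.38), *Nfkb2* (-0.132 to 0.005), *Rela* (-0.022 to 0.18) and *Relb* (-0.18 to 0.87), and for the interaction in *Rela* (-0.27 to 0.14) and *Relb* (-0.21 to 1.90). The cause of these changes was not tested. The 3 cultures per group and the unknown read counts limit the precision, above all of the low members. Other uncalled values that moved by over 1.5 times when a culture was left out include the genotype difference of *Traf3* (0.33 to 0.92) and *Traf5* (-0.62 to -0.24).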
